A study of Caenorhabditis elegans with 12 samples.

Results

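The transcripts described here come from 9 genes of Caenorhabditis elegans that make sugars and glycerol phosphate from smaller precursors: pck-1, pck-2, fbp-1, icl-1, tps-1, tps-2, gob-1, gpdh-1 and gpdh-2. They were chosen by their WormBase symbols, and all 9 were found among the 19997 genes measured. RNA sequencing covered 12 whole-animal samples of adults in 5 groups, with at least 80 worms per sample. The glp-4 animals carried glp-4(bn2), a temperature-sensitive allele that blocks germ cell proliferation, and were collected on day 1, day 3 and day 7 of adulthood (2 samples each). The daf-2 animals carried daf-2(e1370), a reduction-of-function allele of the insulin/IGF-like receptor, together with eri-1(mg366), and their labels name control RNAi bacteria (day 1, 3 samples). The WT animals carried eri-1(mg366) alone, an allele that enhances RNA interference (day 1, 3 samples). All animals received 50 µM FUDR, a blocker of progeny production, from the late L4 stage and were adult at 20 °C. The labels give 15 °C for larval growth throughout, whereas the study's methods give a higher larval temperature for glp-4 animals. The glp-4 strain also lacks the eri-1 allele, so strain, larval temperature, germline and possibly food cannot be told apart when glp-4 is set against WT. Only the daf-2 labels name control RNAi. When daf-2 is set against WT, the daf-2 allele and a possible difference in food cannot be told apart. Nothing states that the samples of a group came from separate cultures, and p-values therefore measure only the spread between these samples.

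Gluconeogenesis runs glycolysis backwards, from oxaloacetate to glucose phosphates. Phosphoenolpyruvate carboxykinase (pck-1, pck-2) opens this route and fructose bisphosphatase (fbp-1) performs a later irreversible step. The glyoxylate cycle, whose isocitrate lyase and malate synthase activities sit in the single worm protein ICL-1, bypasses the carbon-losing steps of the citric acid cycle and so lets worms turn fat into sugar. Glucose phosphates can then be joined into trehalose, the main circulating sugar and a desiccation and stress protectant of nematodes, by trehalose phosphate synthases (tps-1, tps-2) and the trehalose phosphate phosphatase GOB-1. The glycerol phosphate dehydrogenases (gpdh-1, gpdh-2) draw on the same triose pool, and gpdh-1 is the form known to be induced by osmotic stress for glycerol synthesis.

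Total counts per sample were between 4538353 and 22484551, and 3 counts corresponded to between 0.133 and 0.661 CPM (read counts scaled to a common library size). The day 7 glp-4 samples were the shallowest, yet only gpdh-1 was thinly covered there, with 38 and 20 counts. The summed level of 14 germline and oocyte markers was 48.9 to 57.7 CPM in glp-4 animals on day 1, against 11358 to 11559 CPM in WT animals, and reached 494 to 500.1 CPM in glp-4 animals on day 7. For daf-2 this sum was 9137 to 10362 CPM. In these whole-animal samples, fewer cells of a type and less RNA per cell cannot be told apart. As a check of the daf-2 label, the summed level of 5 known targets of DAF-16, the transcription factor that DAF-2 signalling restrains, was 146 to 165 CPM in daf-2 and 8.28 to 11.5 CPM in WT animals. In glp-4 animals this sum was 44.2 to 62.3 CPM on day 1, 721 to 856 CPM on day 3 and 437 to 456 CPM on day 7. The check therefore holds only for daf-2 against WT.

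Per unit of transcript length, pck-2 was the most abundant of the 9 in 4 of the 5 groups. In TPM, a unit that corrects for gene length as well as depth and so allows levels to be compared between genes, pck-2 averaged 968 ± 19.3 in daf-2 and 511 ± 27.6 in WT animals (SD, n = 3 each). On day 1 of glp-4 adulthood icl-1 came ahead, with 637 and 605 TPM against 492 and 571 TPM for pck-2 in the same samples. At the low end, gpdh-1 stood last in daf-2 animals at 6.17 ± 0.94 TPM, whereas tps-1 stood last in WT animals at 7.61 ± 0.64 TPM (SD, n = 3 each). The summed level of the 9 genes was 2214 TPM in daf-2 and 1116 TPM in WT animals, and 1688, 2248 and 1770 TPM in glp-4 animals on days 1, 3 and 7. Of this sum pck-2 held 43.7% in daf-2 and 45.8% in WT animals, and 31.5%, 33.1% and 36.3% in glp-4 animals on days 1, 3 and 7. The share of icl-1 was 14.3% in daf-2 and 8.29% in WT animals, and 36.8%, 25.2% and 33.6% in glp-4 animals on days 1, 3 and 7.

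**Figure D1:**
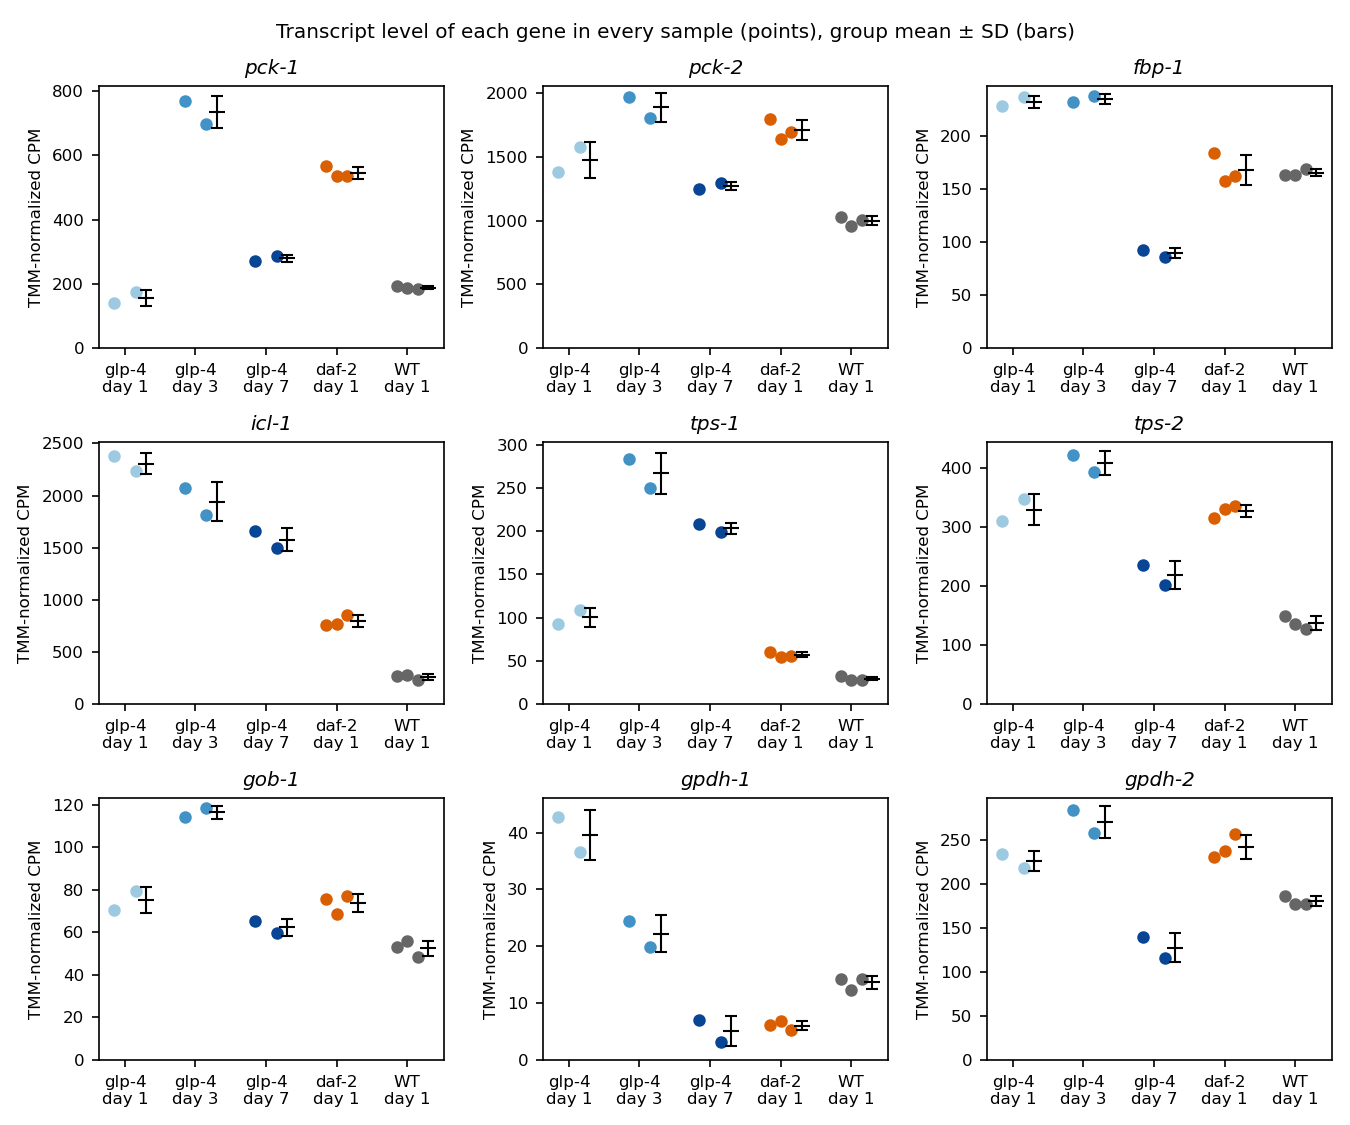
TMM-normalized CPM of the 9 genes (vertical axes, linear, starting at 0) in each of the 12 samples, with glp-4 on days 1, 3 and 7, daf-2 on day 1 and WT on day 1 from left to right. Points are samples and the bars beside them give mean and SD; pck-1 peaks on day 3 of glp-4 adulthood at 734 CPM, icl-1 is highest on day 1 at 2305 CPM, and gpdh-1 is the gene that lies lower in daf-2 (6.07 CPM) than in WT (13.7 CPM).

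Reduced insulin/IGF-like signalling was examined by setting daf-2 against WT animals. Of the 9 genes, 7 rose, 1 fell and 1 did not pass the test (adjusted p under 0.05 in edgeR's quasi-likelihood test, Benjamini-Hochberg adjusted across the genes tested). Among all 13528 genes tested, 25.5% were called higher and 22.5% lower. The glyoxylate enzyme icl-1 and the carboxykinase pck-1 rose most, 3.12-fold and 2.94-fold, and both trehalose phosphate synthases, pck-2, gob-1 and gpdh-2 rose by smaller amounts. The osmotically inducible gpdh-1 was 2.24-fold lower in daf-2, and fbp-1 was at 1.03-fold of its WT level (edgeR adjusted p = 0.486). The median log2 fold change of the 9 was 0.80, against 0.00 over all genes tested. Each of the 8 called genes kept its direction and its call when any single sample was left out. Of the tissue markers, 4 of 7 intestinal genes were lower and 1 higher in daf-2 (sum 408 to 528 CPM, against 712 to 749.8 CPM in WT), and 10 of 14 germline and oocyte genes were lower and 2 higher. Sperm markers were higher, 5 of 6 by the test (median log2 fold change 0.87, sum 102 to 107 CPM in daf-2, against 48.1 to 66.5 CPM in WT), and 3 of the 4 hypodermal markers tested were lower and 1 higher. Their part in the result was not tested.

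Age was examined within the glp-4 animals. By day 3, 6 of the 9 genes were higher than on day 1, 1 was lower and 2 did not pass the test, beside 26.6% higher and 27.5% lower among all 13222 genes tested. The rises ranged from 4.76-fold for pck-1 and 2.70-fold for tps-1 to 1.22-fold for gpdh-2, and gpdh-1 was the gene that fell. The smaller day 3 changes depended on single samples. Without day 3 replicate 1 the number called higher was 3, since pck-2 (log2 fold change 0.32), tps-2 (0.29) and gpdh-2 (0.22) no longer passed the test. Without day 3 replicate 2, tps-2 (0.38), gpdh-2 (0.34) and gpdh-1 (−0.68) lost their calls, leaving 0 lower, and without day 1 replicate 2 gpdh-2 (0.24) lost its call while icl-1 (−0.26) gained one, making 2 lower. Without day 1 replicate 1, tps-2 (0.24) lost its call. In the same samples all 5 body wall muscle markers, 5 of 7 intestinal and 5 of 6 hypodermal markers were lower on day 3 than on day 1 (1 intestinal marker was higher), and all 14 germline and oocyte markers were higher. The hypodermal sum was 3746 to 4381 CPM on day 1, 346 to 354 CPM on day 3 and 106 to 111 CPM on day 7. The part of these tissues in the result was not tested.

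By day 7 most of these genes had come down. Against day 3, 8 of the 9 were lower, 0 were higher and icl-1 did not pass the test (edgeR adjusted p = 0.0545), with 18.4% lower and 14.2% higher among all genes tested. The count of higher genes was also 0 at an unadjusted p under 0.05 in edgeR, with DESeq2 and with limma on TPM. Against day 1, 2 genes were higher on day 7 (pck-1 and tps-1), 5 were lower (gpdh-1, fbp-1, gpdh-2, tps-2 and icl-1) and 2 did not pass the test, with 30.6% higher and 31.3% lower among all genes tested. The median log2 fold change of the 9 was −0.90 for day 7 against day 3 and −0.52 for day 7 against day 1, against 0.01 and 0.02 over all genes tested. Without day 1 replicate 1, pck-2 (−0.29) and gob-1 (−0.33) were also called lower on day 7 than on day 1, and without day 3 replicate 2 icl-1 (−0.40) was also called lower on day 7 than on day 3. The sign of the smaller day 7 changes rests on the scaling between samples. When library totals replaced TMM factors, the median of all genes tested moved to 0.56 for day 7 against day 1. Under this scaling pck-2 (0.35), gob-1 (0.30) and icl-1 (0.02) turned positive, leaving 2 lower and 4 higher. Among all 13222 genes tested, 2593 were then lower and 6550 higher. For day 7 against day 3 the same scaling moved the median of all genes to 0.51 and turned icl-1 (0.22) and tps-1 (0.12), and pck-2 shrank to −0.057 and lost its call. The number called lower on day 7 against day 3 was then 6, as it was with limma on TPM, against 8 with TMM. Of all genes tested, 1055 of 13222 were lower with library totals and 1264 of 13353 with limma on TPM. Of the tissue markers, all 5 of body wall muscle were lower on day 7 than on day 3, 4 of 7 of intestine and 2 of 6 of hypodermis were lower, and 13 of 14 of germline and oocytes were higher. Their part in the result was not tested.

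Germline-deficient glp-4 and WT animals were also set side by side on day 1. Here 8 genes were higher in glp-4 animals and 1 lower, and 45.5% and 40.0% of all 15610 genes tested were called higher and lower, with a median of all genes of 0.28. Measured from that median, icl-1 (2.88), tps-1 (1.49), gpdh-1 (1.25) and tps-2 (0.98) stood highest and pck-1 (−0.54) lowest on the log2 scale. The other 4 genes lay between 0.04 for gpdh-2 and 0.29 for pck-2. With TMM factors computed without germline-dependent genes, 4 were called higher and 5 lower, beside 5164 and 7665 of all 15610 genes tested. Under that scaling pck-2 (−0.19), fbp-1 (−0.27), gob-1 (−0.24) and gpdh-2 (−0.44) changed sign. The pck-1 call was lost without glp-4 day 1 replicate 1 (log2 fold change −0.11), its sign turned with upper-quartile factors (0.10), and DESeq2 called 7 of the 9 higher, without gpdh-2. Markers of somatic tissues moved with this comparison: all 7 intestinal markers were higher in glp-4 (sum 5234 to 5275 CPM, against 712 to 749.8 CPM in WT) and all 5 body wall muscle markers too (18385 to 21698 CPM, against 4671 to 4961 CPM in WT), and their part in the result was not tested.

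**Figure D2:**
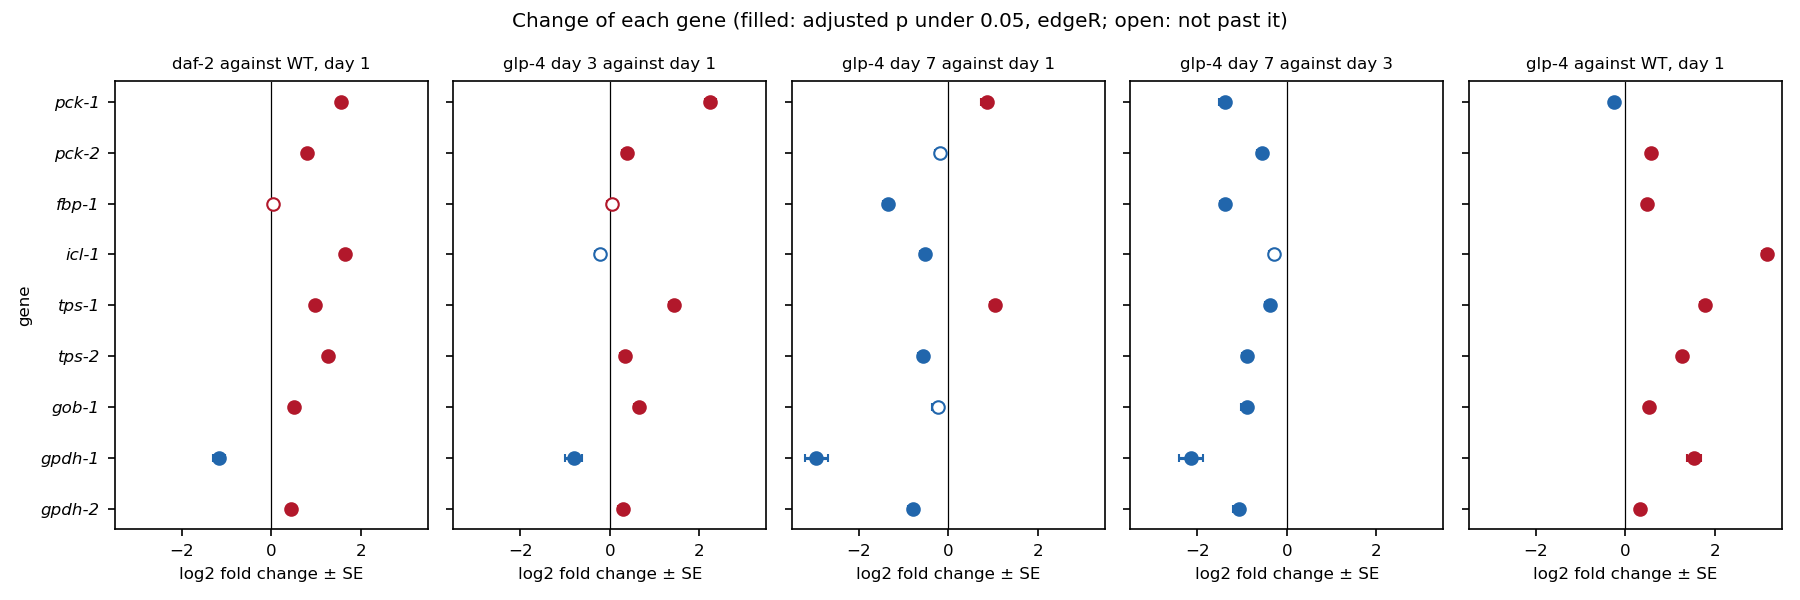
Log2 fold change (horizontal axis, with SE) of the 9 genes in the 5 comparisons, red above 0 and blue below; filled points passed an adjusted p of 0.05. In daf-2 against WT 7 genes lie above 0 as filled points, and in glp-4 day 7 against day 3 all 9 lie below 0, 8 of them filled, a sign that changes for icl-1 and tps-1 with library totals alone.

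The carboxykinase gene pck-1 (WBGene00021043) lies on chromosome III at 62888 to 66260, minus strand, in WBcel235. It stood at 568, 537 and 535 CPM in daf-2 animals, against 192, 189 and 185 CPM in WT animals (TMM-normalized, as are all CPM values of single genes here). The groups were far apart, and replicates lay close together, at a log2 fold change of 1.56 (SE 0.04, edgeR adjusted p = 6.96e-10). In glp-4 animals it measured 139 and 175 CPM on day 1, 769 and 699 CPM on day 3, and 272 and 287 CPM on day 7. Day 3 was thus the peak, and no samples of the 3 ages overlapped. The log2 fold change was 2.25 for day 3 against day 1 (SE 0.12, edgeR adjusted p = 1.98e-09) and −1.39 for day 7 against day 3 (SE 0.12, edgeR adjusted p = 8.44e-07). Day 7 remained above day 1 at a log2 fold change of 0.86 (SE 0.12, edgeR adjusted p = 2.41e-05). Across groups the mean level of pck-1 spanned 4.68-fold, with glp-4 day 3 first, then daf-2, glp-4 day 7, WT and glp-4 day 1, and no neighbours in that order overlapped.

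Its paralog pck-2 (WBGene00011232, chromosome I, 7866136 to 7872100, plus strand) moved in the same direction in daf-2 with a smaller step. It had 1798, 1641 and 1695 CPM in daf-2 animals, against 1029, 960.2 and 1002 CPM in WT animals, without overlap. The log2 fold change was 0.80 (SE 0.04, edgeR adjusted p = 2.81e-07). With age it had 1377 and 1578 CPM on day 1, 1969 and 1808 CPM on day 3, and 1248 and 1295 CPM on day 7 of glp-4 adulthood. The day 3 samples lay above all others, and the day 7 samples lay just below those of day 1. Its log2 fold change was 0.38 for day 3 against day 1 (SE 0.11, edgeR adjusted p = 0.00890) and −0.57 for day 7 against day 3 (SE 0.11, edgeR adjusted p = 0.00117), while day 7 against day 1 did not pass the test (−0.19, edgeR adjusted p = 0.155). The 9 exon bases that pck-2 shares with suro-1 on the other strand are 0.27% of its exon bases.

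Fructose bisphosphatase, encoded by fbp-1 (WBGene00001404, chromosome I, 2581015 to 2586124, minus strand), stood apart from the carboxykinases. Its levels were 184, 158 and 162 CPM in daf-2 animals and 164, 163 and 169 CPM in WT animals, and these overlapped. The log2 fold change of 0.04 (SE 0.05) turned to −0.01 without daf-2 replicate 1. In glp-4 animals fbp-1 measured 228 and 237 CPM on day 1, 232 and 238 CPM on day 3, and 93.0 and 86.0 CPM on day 7. Days 1 and 3 overlapped (log2 fold change 0.04, SE 0.10, edgeR adjusted p = 0.748), and the drop lay between days 3 and 7. By day 7 it had fallen by 1.39 on the log2 scale against day 3 (SE 0.11, edgeR adjusted p = 2.15e-07) and by 1.35 against day 1 (SE 0.10, edgeR adjusted p = 5.51e-08).

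The glyoxylate gene icl-1 (WBGene00001564, chromosome V, 724332 to 728004, minus strand) rose most in daf-2 animals. Its levels were 758, 767 and 858 CPM in daf-2 animals, against 270.2, 276 and 228 CPM in WT animals. The lowest daf-2 sample was well above the highest WT sample, and the log2 fold change was 1.64 (SE 0.08, edgeR adjusted p = 8.54e-08). In glp-4 animals icl-1 had 2376 and 2235 CPM on day 1, 2072 and 1808 CPM on day 3, and 1655 and 1496 CPM on day 7. All 6 of these samples exceeded every daf-2 and WT sample. In glp-4 against WT on day 1 icl-1 was 8.93-fold higher (log2 fold change 3.16, SE 0.10, edgeR adjusted p = 7.37e-15), and between 2.40 and 3.51 on the log2 scale over the 7 scalings. Its decline with age was gradual: −0.22 for day 3 against day 1 (edgeR adjusted p = 0.103), −0.29 for day 7 against day 3, and −0.52 for day 7 against day 1 (SE 0.11, edgeR adjusted p = 0.000945). In TPM, which is scaled within each sample, icl-1 averaged 621, 568 and 595 on days 1, 3 and 7, and the steady decline of TMM-normalized CPM was not seen there.

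Of the trehalose phosphate synthases, tps-1 (WBGene00006602, chromosome X, 17467121 to 17474534, minus strand) was the scarcer. It had 60.7, 54.9 and 55.6 CPM in daf-2 animals, against 32.0, 28.1 and 28.3 CPM in WT animals. The groups did not overlap, at a log2 fold change of 0.97 (SE 0.07, edgeR adjusted p = 1.36e-06). In glp-4 animals tps-1 had 92.5 and 108 CPM on day 1, 283 and 250.3 CPM on day 3, and 208 and 199 CPM on day 7. All 6 lay above the daf-2 samples, and the level stayed high on day 7. Day 3 exceeded day 1 by 1.43 on the log2 scale (SE 0.11, edgeR adjusted p = 1.01e-07) and day 7 exceeded day 1 by 1.05 (SE 0.11, edgeR adjusted p = 2.02e-06). The step between day 7 and day 3 was −0.39 (SE 0.11, edgeR adjusted p = 0.0166). That call was lost when day 3 replicate 1 (−0.32), day 7 replicate 1 (−0.43) or day 7 replicate 2 (−0.37) was left out.

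The second synthase, tps-2 (WBGene00006603, chromosome II, 14600902 to 14610554, plus strand), had 315, 329 and 335 CPM in daf-2 animals, against 149, 136 and 126 CPM in WT animals. No samples overlapped, and the log2 fold change was 1.27 (SE 0.06, edgeR adjusted p = 1.15e-07). In glp-4 animals tps-2 had 310.3 and 347 CPM on day 1, 422 and 393 CPM on day 3, and 235.2 and 201 CPM on day 7. It thus ended below its day 1 level, whereas tps-1 ended above its own. The log2 fold change of tps-2 was 0.34 for day 3 against day 1 (SE 0.11, edgeR adjusted p = 0.0184), −0.90 for day 7 against day 3 (SE 0.11, edgeR adjusted p = 2.85e-05) and −0.56 for day 7 against day 1 (SE 0.11, edgeR adjusted p = 0.000545). An overlap of 24 exon bases with arl-3 on the same strand is 0.63% of the exon bases of tps-2.

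The phosphatase that completes trehalose synthesis, gob-1 (WBGene00001649, chromosome X, 15493602 to 15497504, plus strand), moved by less. It had 75.6, 68.8 and 76.9 CPM in daf-2 animals, against 53.1, 55.7 and 48.4 CPM in WT animals. These did not overlap (log2 fold change 0.52, SE 0.06, edgeR adjusted p = 6.67e-05). In glp-4 animals gob-1 had 70.7 and 79.6 CPM on day 1, 114 and 119 CPM on day 3, and 65.2 and 59.4 CPM on day 7. Both day 3 samples stood above every other sample of the series. Its log2 fold change was 0.66 for day 3 against day 1 (SE 0.11, edgeR adjusted p = 0.000219) and −0.90 for day 7 against day 3 (SE 0.12, edgeR adjusted p = 4.73e-05), and day 7 against day 1 did not pass the test (−0.24, edgeR adjusted p = 0.0926).

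The osmotically inducible dehydrogenase gpdh-1 (WBGene00009824, chromosome I, 14075837 to 14078211, plus strand) was the gene of the 9 called lower in daf-2 than in WT animals. It had 6.10, 6.90 and 5.20 CPM in daf-2 animals, against 14.3, 12.4 and 14.3 CPM in WT animals. Every daf-2 sample was below every WT sample, at a log2 fold change of −1.16 (SE 0.13, edgeR adjusted p = 4.23e-05). In glp-4 animals gpdh-1 had 42.7 and 36.5 CPM on day 1, 24.5 and 19.9 CPM on day 3, and 6.98 and 3.20 CPM on day 7. The 3 ages did not overlap, and the day 7 values rest on few counts. It fell by 0.81 on the log2 scale by day 3 (SE 0.20, edgeR adjusted p = 0.00324) and by 2.95 by day 7 (SE 0.25, edgeR adjusted p = 1.46e-07), both against day 1, and by 2.14 between day 7 and day 3 (SE 0.26, edgeR adjusted p = 2.58e-05). The day 7 against day 1 value was −3.60 without day 7 replicate 1 and −2.48 without day 7 replicate 2, and the day 7 against day 3 value −2.79 and −1.67 without the same samples. The end of gpdh-1 overlaps gadr-6 on the other strand over 73 exon bases, 5.58% of its exon bases, and the library kit did not mark strand, so reads from that stretch cannot be told apart.

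The second dehydrogenase, gpdh-2 (WBGene00010778, chromosome III, 9854074 to 9859183, minus strand), had 231, 237 and 257 CPM in daf-2 animals, against 187, 177 and 178 CPM in WT animals. There was no overlap, and the log2 fold change was 0.44 (SE 0.05, edgeR adjusted p = 4.57e-05), opposite in sign to that of gpdh-1. In glp-4 animals gpdh-2 had 234 and 218 CPM on day 1, 283 and 258 CPM on day 3, and 139.6 and 116 CPM on day 7. The day 7 samples were the lowest of the series. The log2 fold change was 0.29 for day 3 against day 1 (SE 0.11, edgeR adjusted p = 0.0413), −1.08 for day 7 against day 3 (SE 0.11, edgeR adjusted p = 6.20e-06) and −0.79 for day 7 against day 1 (SE 0.11, edgeR adjusted p = 3.24e-05).

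Within each pair of paralogs the minor copy took a varying share of the summed TPM. For the carboxykinases, pck-1 made up 25.6% ± 0.45 of the pair in daf-2 and 16.9% ± 0.47 in WT animals (SD, n = 3 each), and 10.9%, 30.8% and 20.2% in glp-4 animals on days 1, 3 and 7. For the synthases, tps-1 made up 13.2% ± 1.08 in daf-2 and 16.0% ± 0.80 in WT animals (SD, n = 3 each), and 21.1%, 36.4% and 45.1% in glp-4 animals on days 1, 3 and 7. The share of tps-1 was thus lower in daf-2 although its level was higher there. For the dehydrogenases, gpdh-1 made up 2.58% ± 0.43 in daf-2 and 7.58% ± 0.52 in WT animals (SD, n = 3 each), and 16.1%, 8.28% and 4.09% in glp-4 animals on days 1, 3 and 7. In all 3 pairs the daf-2 and WT samples did not overlap, and a 2-sided exact permutation test gave p = 0.1 for each, the smallest value that 3 against 3 samples allow.

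**Figure D3:**
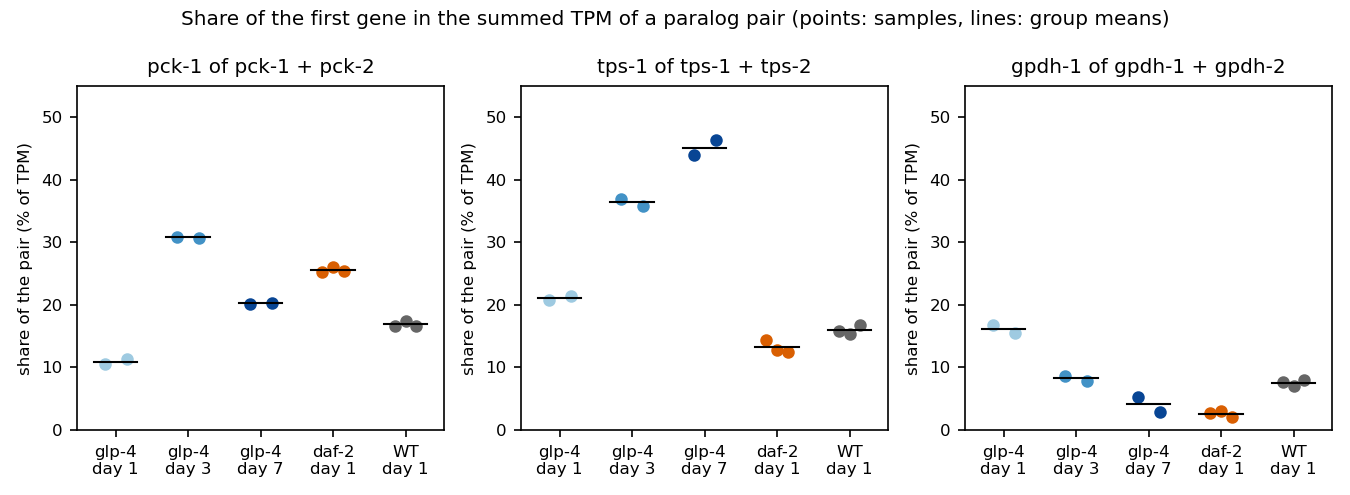
Share of pck-1, tps-1 and gpdh-1 in the summed TPM of their paralog pair (vertical axis, percent) in each sample (points) with group means (lines), glp-4 ages at the left and daf-2 beside WT at the right. The share of tps-1 climbs over the 3 ages to 45.1%, that of gpdh-1 drops to 4.09%, and that of pck-1 is highest on day 3 at 30.8%.

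The neighbouring pathways were described with lists of genes, by counts and medians. Genes listed for the citric acid cycle, which the glyoxylate bypass shortens, went down with age in glp-4 animals. All 22 were lower on day 3 and on day 7 than on day 1, beside 27.5% and 31.3% lower among all genes tested. The median log2 fold changes were −0.99 and −1.63, against 0.00 and 0.02 over all genes tested. On day 1, 17 of the 22 were higher and 2 lower in glp-4 than in WT animals (13 and 4 with DESeq2). In that comparison 45.5% of all genes tested were higher and 40.0% lower. The list was not restricted to steps of the mitochondrial cycle. Its largest fall with age was that of the isocitrate dehydrogenase idh-1, a cytosolic form and not a step of that cycle. The log2 fold change of idh-1 was −2.77 on day 3 (SE 0.13) and −3.92 on day 7 (SE 0.14), both against day 1. No gene of this list was higher at an unadjusted p under 0.05 in edgeR (0 at both ages) or with DESeq2 (0 at both ages). DESeq2 called 21 and 22 of them lower on days 3 and 7, and limma on TPM 20 and 21. Over the same days the summed level of 5 body wall muscle markers, all called lower at both ages, fell to 3749 to 4127 CPM on day 3 and 1449 to 1575 CPM on day 7, against 18385 to 21698 CPM on day 1, and that of 7 intestinal markers was 1432 to 1569 CPM on day 3 and 811 to 882 CPM on day 7, with 5 of 7 called lower and 1 higher on day 3 and 6 of 7 lower on day 7, against 5234 to 5275 CPM on day 1. The part of these tissues in the result was not tested. In daf-2 against WT 10 of the 22 genes were lower, 2 higher, and the median was −0.09, beside 22.5% lower and 25.5% higher among all genes tested.

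Reversible glycolytic steps, shared by glycolysis and gluconeogenesis, were represented by 11 genes. Of these, 6 were higher and 1 lower in daf-2 than in WT animals (median 0.12), beside 25.5% higher and 22.5% lower among all genes tested, led by the glyceraldehyde phosphate dehydrogenase gpd-2, which averaged 664 ± 48.7 CPM in daf-2 and 392 ± 14.1 CPM in WT animals (SD, n = 3 each; log2 fold change 0.78, SE 0.05). With age they went the other way, 8 of 11 lower on day 3 and 9 of 11 lower on day 7 than on day 1 (median −0.40 on day 3), beside 27.5% and 31.3% lower among all genes tested. The aldolase gene aldo-1 fell most by day 3 (log2 fold change −0.89, SE 0.11) and gpd-2 by day 7 (−1.69, SE 0.10). Of the 7 genes for irreversible glycolytic steps, 4 were higher and 2 lower in daf-2, beside the same 25.5% and 22.5%. The largest rise was that of the phosphofructokinase pfk-1.2, at 18.7 ± 1.04 CPM in daf-2 and 7.65 ± 1.41 CPM in WT animals (SD, n = 3 each), and the largest fall that of the hexokinase hxk-1 (log2 fold change −0.44, SE 0.04). In glp-4 animals pfk-1.2 had 1 and 0 counts on day 1, 1 and 0 counts on day 3, and 7 and 5 counts on day 7. The sum of 6 sperm markers ran in the same order as pfk-1.2 on day 1, highest in daf-2 and lowest in glp-4 animals. Its part in the level of pfk-1.2 was not tested.

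Pyruvate carboxylase (pyc-1, named after its values were seen), which supplies oxaloacetate to the carboxykinases, was higher in daf-2 than in WT animals at 620.4 ± 25.5 against 447 ± 15.5 CPM (SD, n = 3 each; log2 fold change 0.49, SE 0.05), and lower on day 7 than on day 1 of glp-4 adulthood (−1.26, SE 0.11). The third carboxykinase gene, pck-3 (WBGene00019151, chromosome IV, 5896641 to 5899112, plus strand), had 28.5 ± 2.24 CPM in daf-2 and 9.42 ± 1.24 CPM in WT animals (SD, n = 3 each; log2 fold change 1.62, SE 0.12, edgeR adjusted p = 1.60e-06). In glp-4 animals pck-3 had 0 and 0 counts on day 1, 2 and 0 counts on day 3, and 2 and 9 counts on day 7, with 3 counts taken as the floor, whereas pck-1 and pck-2 had at least 1195 counts in every glp-4 sample. The sum of 6 sperm markers ran in the same order as pck-3 on day 1, at 102 to 107 CPM in daf-2, 48.1 to 66.5 CPM in WT and 2.76 to 3.73 CPM in glp-4 animals, and its part in the level of pck-3 was not tested.

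The trehalases, which split trehalose back into glucose, numbered 5. In daf-2 against WT 1 was higher and 3 were lower, with a median log2 fold change of −0.45. Among all genes tested 25.5% were higher and 22.5% lower, so the 1 higher gene is near the share of all genes. Here tre-2 had the largest fall, at 56.6 ± 6.90 CPM in daf-2 and 99.3 ± 5.40 CPM in WT animals (SD, n = 3 each; log2 fold change −0.79, SE 0.08), and tre-4 was the one that rose (0.70, SE 0.15). The synthesis genes tps-1, tps-2 and gob-1 were all higher in the same samples. In glp-4 animals 3 trehalases were higher and 0 lower on day 3 than on day 1 (0 lower also at an unadjusted p under 0.05, with DESeq2 and with limma on TPM), with tre-2 rising most (0.87, SE 0.12). In that comparison 26.6% of all genes tested were higher and 27.5% lower. By day 7, 1 was higher and 3 were lower than on day 1, beside 30.6% higher and 31.3% lower among all genes tested. The one that rose, tre-5, had 42.3 ± 4.33 CPM on day 7 and 10.2 ± 3.17 CPM on day 1 (SD, n = 2 each; log2 fold change 2.09, SE 0.21).

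Peroxisomal fatty acid oxidation, a source of the acetyl-CoA that feeds the glyoxylate cycle, was represented by 8 genes. In daf-2 against WT 2 were higher and 3 lower, with the acyl-CoA oxidase gene acox-1.2 at 3.64 ± 0.86 CPM in daf-2 and 16.7 ± 0.09 CPM in WT animals (SD, n = 3 each; log2 fold change −2.18, SE 0.15). The 2 and 3 of 8 are near the 25.5% and 22.5% of all genes tested. In glp-4 animals 6 were lower and 2 higher on day 3 than on day 1, and 3 were lower and 3 higher on day 7 than on day 1, with another, acox-3, rising most at both ages (0.78 and 1.14, SE 0.11 for each). For day 3 against day 1, 27.5% of all genes tested were lower and 26.6% higher. The day 7 counts are near the 30.6% higher and 31.3% lower of all genes tested. Of 6 glycogen genes, 5 were lower on day 7 than on day 1 of glp-4 adulthood, beside 31.3% lower among all genes tested. The glycogen phosphorylase pygl-1 fell most, at 168 ± 6.80 CPM on day 7 and 779.9 ± 12.7 CPM on day 1 (SD, n = 2 each; log2 fold change −2.18, SE 0.11). In daf-2 against WT 4 of the 6 were higher and 0 lower (1 and 0 with DESeq2), beside 25.5% and 22.5% of all genes tested. In glp-4 against WT on day 1, 5 were lower and 1 higher, beside 40.0% and 45.5% of all genes tested. Of 3 glycerol genes tested, 2 were higher and 0 lower in daf-2 against WT, beside 25.5% and 22.5% of all genes tested. In glp-4 animals 1 was higher and 1 lower on day 3 than on day 1, beside the same 26.6% and 27.5%. On day 7 against day 1, 1 was higher and 2 were lower (median −1.58), beside the same 30.6% and 31.3%. The glycerol kinase gene R11F4.1 rose in daf-2 against WT (0.67, SE 0.10). It was also the one that rose on day 3 (1.24, SE 0.14) and day 7 (0.84, SE 0.14) against day 1. The largest fall at both ages was that of pgph-3 (−0.71 and −1.69, SE 0.12 for each).

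**Figure D4:**
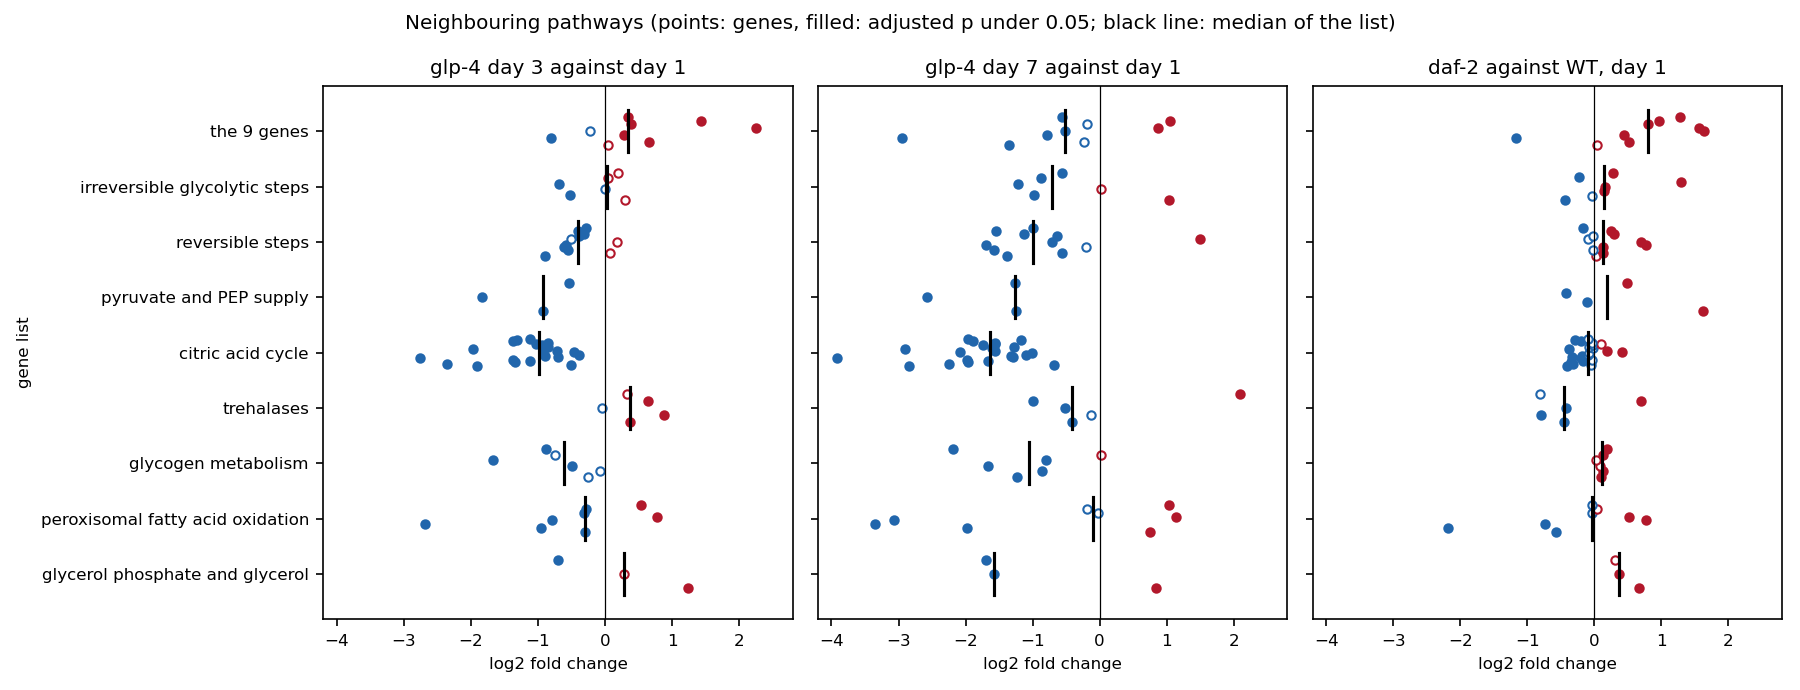
Log2 fold change (horizontal axis) of the genes of 9 lists for glp-4 day 3 against day 1, glp-4 day 7 against day 1 and daf-2 against WT; points are genes, filled where the adjusted p was under 0.05, and black lines are list medians. All 22 genes listed for the citric acid cycle lie below 0 at both ages, with medians of −0.99 and −1.63. The medians of the 9 genes described here are 0.34, −0.52 and 0.80 in the 3 panels.

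Genes whose pattern was most like that of each of the 9 were ranked by Pearson's r of log2 CPM over the 12 samples among 15610 genes. These samples share strain and age structure, so r is a description of likeness and carries no p. The closest were hen-1 for pck-1 (r = 0.97), T28F4.4 for pck-2 (0.97), ugt-43 for fbp-1 (0.98), saeg-2 for icl-1 (0.99), unk-1 for tps-1 (0.99), dhs-9 for tps-2 (0.97), R148.5 for gob-1 (0.97), gale-1 for gpdh-1 (0.98) and Y51F10.7 for gpdh-2 (0.95). The next in rank were D1086.9 for pck-1 (0.96), tps-2 for pck-2 (0.96), col-181 for fbp-1 (0.97), T23F2.2 for icl-1 (0.99), C39E9.7 for tps-1 (0.99), pck-2 for tps-2 (0.96), K07B1.4 for gob-1 (0.96), ncs-4 for gpdh-1 (0.98) and txt-4 for gpdh-2 (0.94). Only pck-2 and tps-2, of different enzymatic roles, had another of the 9 genes among their 2 closest. Between paralogs, r over the 12 samples was 0.79 for pck-1 with pck-2, 0.64 for tps-1 with tps-2 and 0.48 for gpdh-1 with gpdh-2. The paralog pairs were set beforehand, whereas the closest genes were picked from 15610, so these values cannot be weighed against each other. Among the 9 genes, pck-2 was the most like pck-1.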

How the data were processed

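Libraries were made with a kit that does not mark strand and read as 50-base single ends. The authors deposited estimated counts per gene, not normalized, and TPM values, each in 1 table of 19997 genes. The submitters' processing notes name kallisto, edgeR, DiffBind and the builds WBcel235 and ce11. Symbols and positions came from Ensembl release 115 of WBcel235.

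The deposited estimates are whole numbers, and 305 values at 0 counts have a TPM above 0, so they had been rounded before deposit. Counts were filtered with filterByExpr (at least 10 counts, total 15), TMM-normalized and tested with edgeR 4.0.16 in R 4.3.3 (quasi-likelihood test, 2-sided, Benjamini-Hochberg over all genes tested, called at adjusted p under 0.05). The daf-2 and WT samples were fitted alone, the 6 glp-4 samples together, and glp-4 against WT over all 12. SE is the absolute log2 fold change divided by the square root of F. Alternatives used DESeq2 1.42.0, limma 3.58.1 on log2(TPM + 1), other scalings, filters and thresholds, the replicate number as a block, and single samples left out. Correlations used log2 CPM with a prior count of 2. Germline-dependent genes (3413) were those called lower in glp-4 than in WT with a log2 value below −2. Fits were tested on simulated data. Changes of 1 on the log2 scale were recovered for 84.8% of changed genes in daf-2 against WT and 58.8% in glp-4 day 7 against day 1. Changes of 2 were recovered for 99.0% and 94%. A gene that did not pass the test in an age comparison may therefore still have changed.

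All 9 genes were described in every comparison, with the 2 most correlated genes of each and, from a related list, the largest rise and fall among called genes. Genes, lists and markers were chosen with earlier results of these data known. T25G3.4 and opt-2, listed among glycerol and intestinal genes, matched no symbol and were not analysed here. Promoter motifs and sequence shared by paralogs were planned but not analysed here.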

Additional observations from a re-analysis of the deposited data

How the results depend on the processing

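Of 882 log2 fold changes of the 9 genes under alternatives, 771 kept direction and side of the threshold, 73 lost their call, 13 gained one and 25 changed sign. Leaving out 1 sample gave between 3 and 5 genes higher and between 0 and 2 lower on day 3 against day 1, between 0 and 1 lower in glp-4 against WT, and between −0.011 and 0.069 for fbp-1 in daf-2. Sign changes for day 7 against day 1 were pck-2 (0.017 with upper-quartile factors, 0.35 with library totals, 0.28 with each limma fit on TPM), gob-1 (0.30 with library totals, 0.21, 0.22 and 0.21 with limma), icl-1 and the median of the 9 (0.020 each with library totals). For day 7 against day 3 they were icl-1 (0.22 with library totals, 0.070, 0.071 and 0.070 with limma) and tps-1 (0.12 with library totals). In glp-4 against WT they were pck-1 (0.10 with upper-quartile factors), gpdh-2 (−0.010 with library totals, −0.088, −0.089 and −0.088 with limma) and, without germline-dependent genes, pck-2 (−0.19, also the median of the 9), fbp-1 (−0.27), gob-1 (−0.24) and gpdh-2 (−0.44). The causes were not tested. The counts that follow have the count over all genes tested in brackets. Keeping calls whose log2 fold change reached 1 in size left 3 higher in daf-2 (1438 of 13528). On day 3 against day 1 it left 2 higher and 0 lower (2141 and 2014 of 13222). On day 7 against day 1 it left 1 higher and 2 lower (2660 and 2665 of 13222). On day 7 against day 3 it left 4 lower (1056 of 13222). In glp-4 against WT it left 4 higher and 0 lower (5891 and 5037 of 15610). Library totals gave 4 higher and 2 lower on day 7 against day 1 (6550 and 2593 of 13222). The limma fits gave 0 lower on day 3 (2858 and 2810 of 13353, and 2828 of 18726 with no filter). For day 7 against day 1 they gave 3, 3 and 2 lower (2674 and 2620 of 13353, and 2745 of 18726). In glp-4 against WT they gave 4 higher (5283 and 5265 of 14072, and 6120 of 19401). There, removal of germline-dependent genes gave 4 higher and 5 lower (5164 and 7665 of 15610). Upper-quartile factors or an adjusted p under 0.01 gave 0 lower (5598 and 5908 of 15610). Library totals moved the share of higher calls over all genes to 71.8% (53.2% with TMM) in daf-2, 71.6% (49.4%) on day 7 against day 1 and 84.4% (43.5%) on day 7 against day 3, and removal of germline-dependent genes moved it to 40.3% (53.2%) in glp-4 against WT. With a replicate block, icl-1 on day 7 against day 3 (−0.29) passed the test (edgeR adjusted p = 0.0477), and no other call of the 9 changed. Deviations of same-numbered samples correlated between −0.02 and 0.02, so no shared effect of the replicate number was seen. This cannot show whether same-numbered samples were prepared together. With 2 samples per glp-4 age, the deviations within an age also mirror each other. With 2 samples per age, the smaller changes are limited by the spread between them.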
